A study of Homo sapiens with 8 samples.

Results

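The resting transcriptome of A549 cells, an established epithelial line from a human lung adenocarcinoma, was described across 19158 genes in the 4 untreated libraries of a series of 8. The libraries were taken by their label: genotype WT, no treatment, DMEM with glutamax and 5% FBS, replicates 1, 3, 4 and 5, each made from its own culture well and all with the batch label 1. The other 4 libraries came from wells given 1 µM dexamethasone for 48 h and were not used. No comparison between groups was made, so every statement below is a description of 4 wells of 1 line, and the spread is that between these wells.

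A549 cells are used as a model of the distal lung and of virus infection, and their genome is well known to carry damaged STK11 and KEAP1 alleles and a deleted CDKN2A. The alveolar epithelium that such tumours resemble is made of thin type I cells, which carry gas exchange, and cuboidal type II cells, which make surfactant under the control of the transcription factor NKX2-1. KEAP1 normally holds NRF2 in check, and NRF2 drives genes that reduce aldehydes, ketones and oxidised thiols.

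Levels are FPKM, fragments per kilobase of transcript, relative to the fragments of the whole library. Division by length does not remove the differences along GC content described below, so a comparison between genes can depend on the library. Where 4 values are given in a row they stand for replicates 1, 3, 4 and 5 in that order, and a mean is followed by its SD over these 4 libraries. A gene was counted as expressed at 1 FPKM or more in all 4 libraries, silent below 0.1 FPKM in all 4, and intermediate otherwise. The step between neighbouring low values put the depth at 25020000 to 26560000 fragments a library, so that 1 fragment on a transcript of 2 kb was worth 0.0188 to 0.0200 FPKM and the silent limit lay at 5.00 to 5.31 such fragments. In RNA from a whole well, few cells with much of a transcript and many cells with little of it cannot be told apart.

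Replicate 5 stood apart from the other 3 libraries. Spearman correlations over the 19158 genes were 0.987 to 0.989 among replicates 1, 3 and 4 and 0.972 to 0.977 between these and replicate 5. Genes at 1 FPKM or more numbered 11290, 11378, 11349 and 10555. Because the limit had to be met in every library, replicate 5 sets many of the class borders. Without it the count of expressed members changed in 17 of the 48 gene lists used below, and where such a count is printed the second is given beside it.

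Of the 19158 genes 10358 (54.1%) were expressed, 3639 (19.0%) were intermediate and 5161 (26.9%) were silent, of which 3121 were listed at 0 in all 4 libraries. The median of the mean FPKM was 2.58 over all genes. These shares and this median are the background against which each gene group below can be read. Without replicate 5 the expressed genes numbered 11082 and the silent genes 5255. The expressed genes held 99.2% of the summed FPKM, with a median of 10.4 FPKM, and silent genes held 0.0100%. At the border, 1299 genes lay above 1 FPKM in one library and below it in another.

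**Figure D1:**
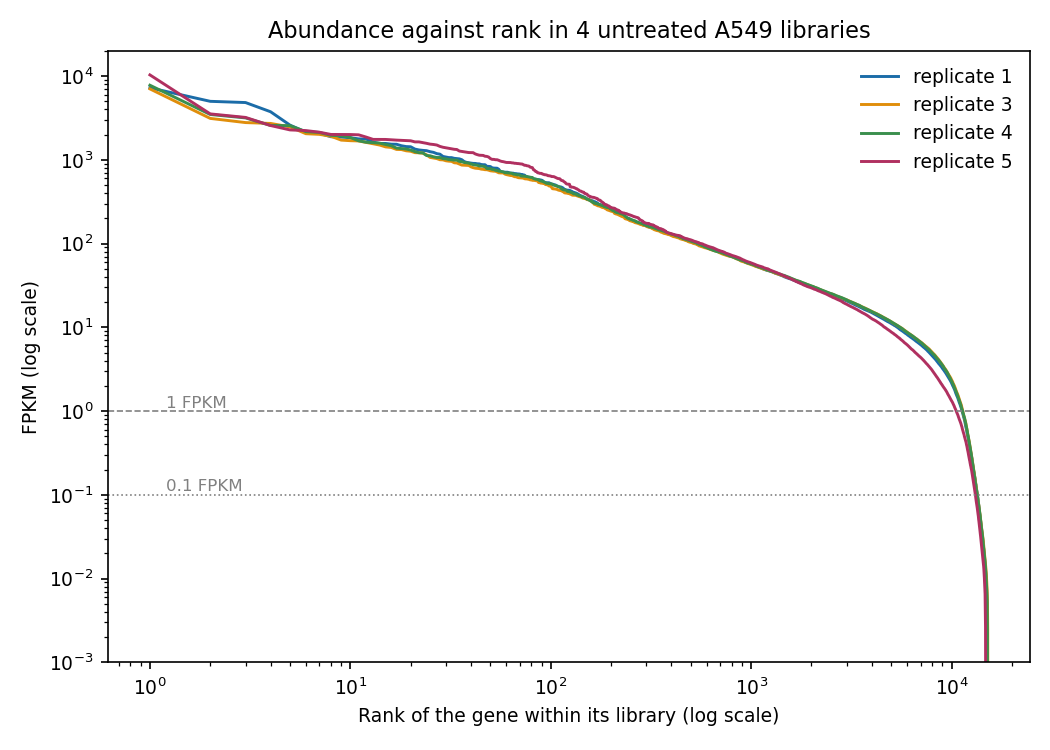
FPKM of each gene (vertical axis, log scale) against its rank within its library (horizontal axis, log scale), 1 line for each of the 4 untreated libraries, with dashed and dotted lines at 1 and 0.1 FPKM. Replicate 1 lies above the others just after the first rank and replicate 5 among the next abundant genes, and replicate 5 lies below the others at the far end, where it held 10555 genes at 1 FPKM or more against 11290 to 11378.

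The most abundant transcript was FTL, which encodes the light chain of ferritin, the iron store, at 7225, 7009.7, 7756 and 10299 FPKM. All 4 libraries ranked it first, replicate 5 the highest, and its mean of 8073 ± 1517 FPKM was followed by those of 3 transcripts of the mitochondrial genome and GAPDH. FTH1, the ferritin heavy chain, stood at rank 11 with 1762 ± 124 FPKM. The glycolytic enzymes GAPDH, PKM and ENO1 had means of 2784 ± 497 FPKM, 1709 ± 487 FPKM and 1356 ± 219 FPKM, and the cytoskeletal genes ACTB, ACTG1, TMSB10 and ANXA2 had means of 2072 ± 756 FPKM, 1644 ± 305 FPKM, 1774 ± 324 FPKM and 1579 ± 51.2 FPKM. EEF1A1, the translation elongation factor that delivers tRNA to the ribosome, was measured at 1834, 2713, 2566 and 1603 FPKM, with replicate 5 the lowest.

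Enzymes of aldehyde and ketone metabolism were among the leading transcripts of these cells. AKR1B10, an aldo-keto reductase that reduces retinal and other carbonyls, ranked 7 at 2139.8, 2010.3, 2166 and 1999.8 FPKM, and the 4 libraries lay close together. ALDH1A1, which oxidises retinal to retinoic acid and is used as a stem-like tumour cell marker, ranked 14 at 1469, 1908, 1934 and 1216 FPKM. Of 14 aldo-keto reductase genes 9 were expressed (64.3%) and together they held 1.52% ± 0.0686 of the summed FPKM. AKR1B1, AKR1C3, AKR1C2 and AKR1C1 had means of 1308 ± 464 FPKM, 1151 ± 67.4 FPKM, 601 ± 15.7 FPKM and 228 ± 15.5 FPKM. The ranges of AKR1B10, AKR1B1 and AKR1C3 overlapped with their neighbour in this order, and reads of the near-identical AKR1C genes and of AKR1B10 and AKR1B15 may have been divided between them. Only 1 member, AKR1D1, the bile acid 5-beta-reductase, was silent, listed at 0 in all 4 libraries.

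Of 19 aldehyde dehydrogenase genes 14 were expressed (73.7%). ALDH3A1, an enzyme of the cornea and of many lung tumours, followed ALDH1A1 at 888 ± 104 FPKM, and ALDH3B1, ALDH3A2 and ALDH1B1 had means of 72.98 ± 24.5 FPKM, 45.6 ± 17.2 FPKM and 43.7 ± 1.69 FPKM. ALDH3B2 and ALDH8A1 were silent. NQO1, a quinone reductase and textbook target of NRF2, was chosen after its values were seen and had a mean of 461 ± 18.7 FPKM. Among the ABC transporters 23 of 45 were expressed (51.1%, and 24 without replicate 5), led by the drug and conjugate exporters ABCC3, ABCC2 and ABCC1 at 90.6 ± 8.896 FPKM, 89.6 ± 24.1 FPKM and 83.7 ± 9.88 FPKM. In the UDP glucuronosyltransferases, which conjugate drugs and steroids, 1 of 19 was expressed: UGT1A9, at 7.23, 9.15, 6.05 and 4.65 FPKM. Without replicate 3 the count was 2. The genes of the UGT1A locus share their last exons, so their separate values are uncertain.

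The 13 protein-coding genes of the mitochondrial genome were all expressed and took 6.04%, 3.45%, 3.71% and 1.74% of the summed FPKM, so that the share in replicate 1 was the largest and that in replicate 5 the smallest. The cytochrome c oxidase subunits MT-CO1, MT-CO3 and MT-CO2 led, MT-CO1 at 4981, 3115, 3469 and 1499 FPKM. MT-ND6, the only member encoded on the light strand, was the lowest at 87.1, 48.4, 45.03 and 11.8 FPKM. The order from MT-CO1 to MT-CYB held no pair of neighbours whose ranges over the libraries were separate.

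Ribosomal protein genes held 10.9% ± 0.898 of the summed FPKM, and 82 of 84 were expressed (97.6%). RPS2, RPS16 and RPL41 led at 1800.3 ± 518 FPKM, 1550.1 ± 393 FPKM and 1534 ± 168 FPKM. The exceptions were the muscle paralogue RPL3L at 0.123, 0.221, 0.0481 and 0 FPKM and the testis retrogene RPL10L, listed at 0 throughout. Histone mRNAs made in S phase lack a poly(A) tail and are kept when RNA is depleted of ribosomal RNA in place of poly(A) selection, as it was here. The 70 histone genes held 5.801%, 5.5003%, 5.72% and 10.3% of the summed FPKM, the highest in replicate 5, and 7 of them stood among the 50 most abundant genes, HIST1H3B first at 1284, 1215, 1378 and 2270.4 FPKM. HIST2H2AA3 and HIST2H2AA4 are near-identical copies, and the similar values of these genes, 1137 ± 410.1 FPKM and 1101 ± 397 FPKM, cannot be taken as separate measurements.

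Abundance was concentrated in few genes. On mean FPKM, 36 genes reached 1000, 536 reached 100 and 5296 reached 10. The 10 most abundant genes held 9.22%, 7.90%, 8.26% and 8.62% of the summed FPKM (8.50% ± 0.559). The number of genes needed to reach 50% of it was 383, 464, 429 and 266, the smallest in replicate 5, and 384 on the means.

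Among epithelial genes the keratins were abundant, and several adhesion and regulatory genes were low or silent. KRT8, KRT7 and KRT18, keratins of simple epithelia, had 1294, 957, 1579 and 1984 FPKM, 1165, 1689, 1209 and 1633 FPKM and 872, 805, 836 and 1270.0 FPKM. The ranges of KRT8 and KRT7 overlapped and their order changed between libraries, while KRT19 at 156 ± 30.6 FPKM lay below KRT18 in every library. The gene of KRT7 overlaps that of KRT86 on the same strand, and KRT8 that of KRT18 on the opposite strand, so part of their reads may be shared. The epithelial transcription factor ELF3 followed at 75.5 ± 10.5 FPKM and E-cadherin, CDH1, at 6.54, 7.22, 8.52 and 4.899 FPKM. In all, 8 of 19 epithelial genes were expressed, 4 intermediate and 7 silent.

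The epithelial adhesion gene EPCAM was low, at 0.418, 0.765, 0.747 and 0.221 FPKM. GRHL2, a transcription factor that keeps epithelial genes active, OVOL1, which represses mesenchymal genes, and RAB25, a GTPase of apical recycling, were listed at 0 in all 4 libraries. The epithelial splicing regulators ESRP1 and ESRP2 and P-cadherin, CDH3, were also silent, with means of 0.0305, 0.0564 and 0.0447 FPKM. KRT81, a hair keratin, was chosen after its values were seen: it ranked 22 at 1309, 1211, 1212 and 1705 FPKM, and its gene overlaps that of KRT86 on the opposite strand.

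Mesenchymal genes stood beside the keratins. VIM, the intermediate filament of mesenchymal cells, was measured at 615, 648, 638 and 537 FPKM, above KRT19 in every library, and fibronectin, FN1, at 85.3, 71.3, 62.2 and 42.2 FPKM. N-cadherin, CDH2, had 14.5, 15.3, 14.1 and 9.47 FPKM and so exceeded CDH1 in each of the 4 libraries. ZEB1, a repressor of CDH1, stood at 1.88, 3.01, 2.98 and 1.34 FPKM, higher in replicates 3 and 4 than in the other libraries. Of 19 mesenchymal genes 9 were expressed (10 without replicate 5) and 6 intermediate, among the latter SNAI1, TWIST1, SNAI2 and both PDGF receptors. The matrix genes were split: SPARC and COL1A1 were expressed at 4.09, 4.27, 3.73 and 4.32 FPKM and 2.25, 2.01, 1.79 and 2.06 FPKM, COL1A2 and DCN were listed at 0, and COL3A1 and LUM were silent.

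**Figure D2:**
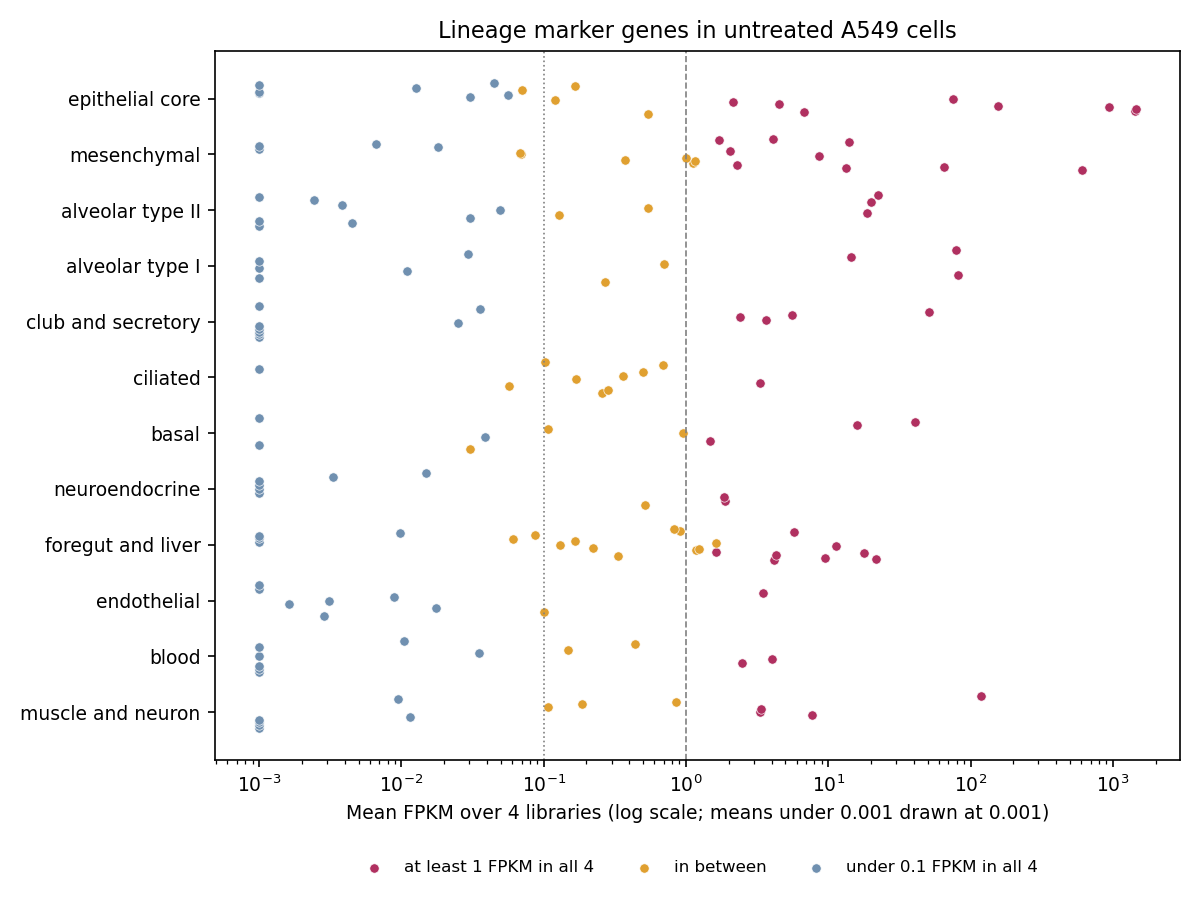
Mean FPKM over the 4 untreated libraries (horizontal axis, log scale, means under 0.001 drawn at 0.001) of the marker genes of 12 lineages (vertical axis), 1 point a gene, coloured by class, with dashed and dotted lines at 1 and 0.1 FPKM. The 3 leading keratins and VIM lie furthest to the right, whereas most surfactant, club, endothelial and blood genes lie below 0.1 FPKM.

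The 6 lists of lung cell types held 63 genes, of which 16 were expressed, 16 intermediate and 31 silent. Of 13 alveolar type II genes 3 were expressed: LPCAT1, which makes surfactant phosphatidylcholine, at 19.9, 21.6, 23.1 and 24.9 FPKM, the transcription factor ETV5 at 20.2, 19.4, 19.8 and 20.1 FPKM and ABCA3, the lipid pump of the lamellar body, at 16.8, 18.6, 16.3 and 22.6 FPKM. The surfactant genes SFTPB and SFTPA1 and the pepsinogen gene PGC were listed at 0, and SFTPC, SFTPA2, LAMP3 and SLC34A2 were silent. SFTPD, a collectin of the airspace, was intermediate at 0.151, 0.03103, 0.147 and 0.187 FPKM. NKX2-1 itself had 0, 0.0154, 0 and 0 FPKM. Of the markers behind the label of lung epithelium, the keratins of simple epithelia were thus high, LPCAT1 and ABCA3 were expressed, and the genes of the surfactant proteins were silent or close to it.

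Of 10 type I genes 3 were expressed, the caveola gene CAV1 at 82.2 ± 45.3 FPKM, GPRC5A at 79.1 ± 5.54 FPKM and EMP2 at 14.3 ± 1.32 FPKM, but AGER, the defining receptor of type I cells, was at 0.561, 0.272, 0.0683 and 0.175 FPKM. AQP5, PDPN, HOPX, CLIC5 and AQP4 were silent. Secretory cell genes were split: AGR2, a disulfide isomerase of mucus cells, was at 58.5, 52.96, 67.1 and 27.5 FPKM, its factor SPDEF at 5.59 ± 1.15 FPKM and the mucins MUC5AC and MUC5B at 3.68 ± 1.34 FPKM and 2.39 ± 0.461 FPKM, whereas the club cell genes SCGB1A1, SCGB3A1, SCGB3A2, CYP2F1 and BPIFA1 were listed at 0. Altogether 4 of 12 members of this list were expressed and 8 silent.

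In the ciliated list 1 of 10 genes was expressed, TPPP3 at 3.3004 ± 0.689 FPKM, and 8 were intermediate. The ciliogenesis factor FOXJ1 was at 0.238, 0.177, 0.267 and 0.351 FPKM. Of 9 basal genes 3 were expressed, the integrins ITGB4 and ITGA6 at 40.8 ± 2.29 FPKM and 15.9 ± 5.65 FPKM and KRT15 at 1.48 ± 0.186 FPKM. TP63, the basal cell factor, came to 0.814, 1.37, 0.824 and 0.781 FPKM, on both sides of the limit of 1 FPKM, and KRT14 was listed at 0. Neuroendocrine genes were expressed in 2 of 9 cases, CHGB at 1.89 ± 0.332 FPKM and SYP at 1.86 ± 0.454 FPKM, while INSM1, a factor of this fate, was listed at 0.

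Factors of foregut and liver were present. FOXA2, SOX9 and HNF4A, which pattern endoderm, had 17.95 ± 0.922 FPKM, 11.3 ± 1.79 FPKM and 9.55 ± 0.388 FPKM, and HNF4A was measured at 9.31, 9.1995, 9.61 and 10.1 FPKM. FOXA1, the pioneer factor of lung and gut, had 5.14, 4.75, 4.07 and 3.25 FPKM. Liver products differed among themselves. The fibrinogen chain gene FGA was expressed at 6.28, 6.204, 5.48 and 4.92 FPKM, FGB and FGG were intermediate at 1.01, 0.7295, 1.097 and 0.767 FPKM and 1.12, 1.14, 0.765 and 0.296 FPKM, ALB, APOA1 and APOB were listed at 0 and TF was silent. AFP and the other 2 liver products of the list were intermediate, all under 1 FPKM. The list of 23 genes held 8 expressed (10 without replicate 5), 11 intermediate and 4 silent members.

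Genes of other tissues mark what these wells lack. Of 9 endothelial genes 7 were silent, PECAM1 and KDR among them, and ESAM was expressed at 3.47 ± 0.733 FPKM. Of 11 blood genes 7 were silent: the leukocyte gene PTPRC, CD3E of T cells, MS4A1 of B cells, LYZ and HBB were listed at 0, whereas CD68 and CD14 were expressed at 4.03 ± 0.583 FPKM and 2.48 ± 0.518 FPKM. In the muscle and neuron list the muscle genes MYOD1, MYOG, DES and MYH7 were listed at 0. The neuronal beta-tubulin TUBB3 was at 148, 69.9, 159.5 and 100.2 FPKM, higher in replicates 1 and 4 than in the other libraries, and the neuronal splicing factor RBFOX3 at 7.19, 8.82, 8.32 and 6.65 FPKM, so 4 of 13 members of that list were expressed.

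HOX genes encode the homeodomain factors that give cells a position along the body axis. Of 39 members 19 were expressed, 17 intermediate and 3 silent (7.69%, beside 26.9% of all genes), and no HOX gene reached 20 FPKM. HOXB7 led at 13.4, 14.1, 13.7 and 13.95 FPKM, followed by HOXB6 at 9.74, 10.997, 11.1 and 7.89 FPKM and HOXB8 at 7.83, 7.36, 6.36 and 7.61 FPKM. These 3 neighbours in the middle of the HOXB cluster lay in this order in every library, above HOXB5 at 2.16 ± 0.667 FPKM and HOXB9 at 3.11 ± 0.498 FPKM. Outside the HOXB cluster, HOXC13 stood at 7.18, 6.16, 6.99 and 6.84 FPKM and HOXA3 at 5.78, 4.34, 6.57 and 4.01 FPKM. In the HOXD cluster none of the members was expressed, HOXD8 being the highest at 0.811, 0.969, 0.931 and 0.531 FPKM. HOXB1, HOXC12 and HOXD12 were silent. Genes of the HOXB cluster overlap each other on the same strand, HOXB7 with HOXB8 and HOXB9, so part of their reads may be shared.

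**Figure D3:**
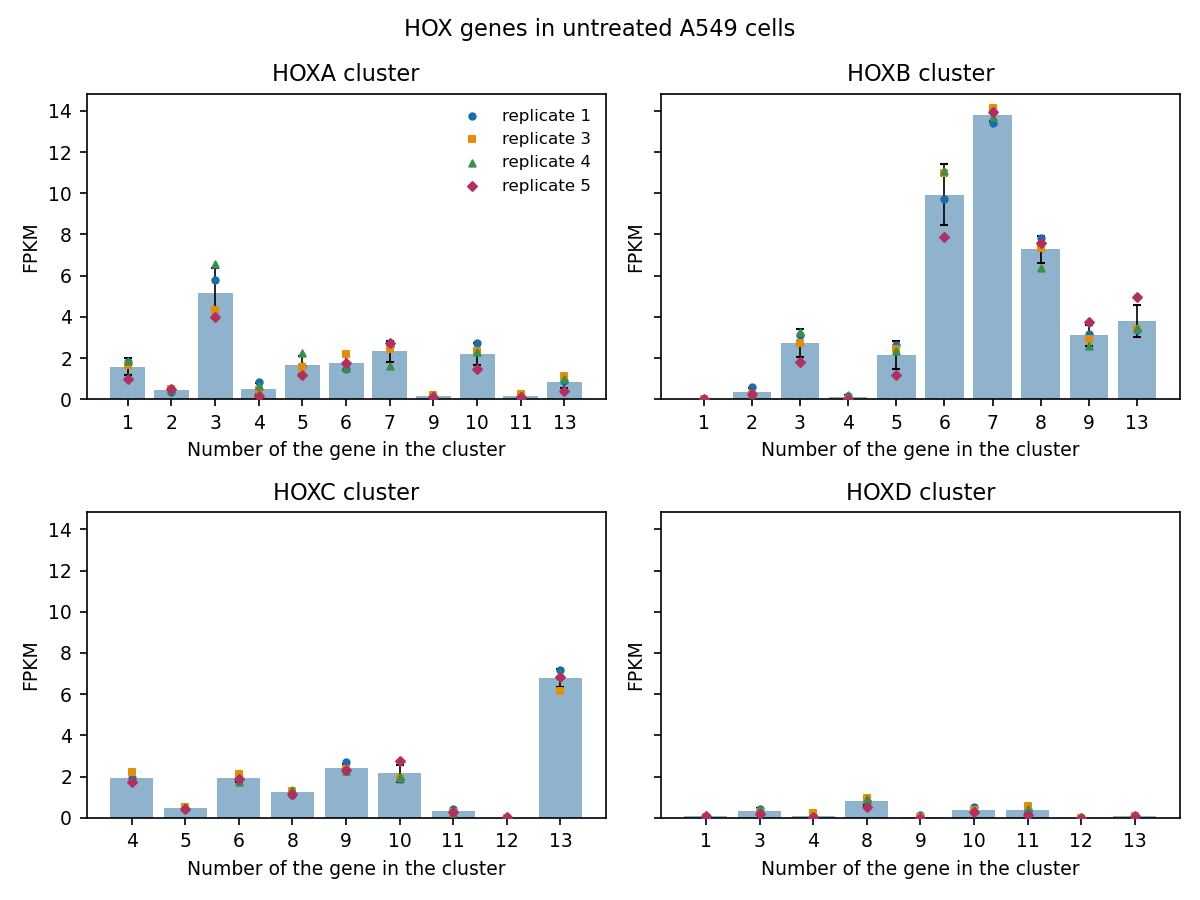
FPKM of the HOX genes (vertical axis, linear from 0) by number in each of the 4 clusters (horizontal axis), with bars for the mean, error bars for the SD and points for the 4 untreated libraries. HOXB6, HOXB7 and HOXB8 form the highest group, and all HOXD means lie under 1 FPKM.

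Members of the FOX, SOX, PAX, GATA, T-box and NK homeobox families were mostly intermediate or silent. In the FOX family 19 of 44 were expressed (20 without replicate 5), led by FOXK2 at 28.98 ± 3.99 FPKM, the mitotic factor FOXM1 at 25.1 ± 0.523 FPKM and FOXK1 at 21.2 ± 3.07 FPKM. In the SOX family 5 of 19 were expressed (6 without replicate 5), SOX12 first at 26.8 ± 1.89 FPKM and SOX4 at 12.8 ± 3.37 FPKM. None of 9 PAX genes was expressed. GATA3 and GATA2 were expressed (3 GATA genes without replicate 5), at 3.84 ± 0.691 FPKM and 1.82 ± 0.159 FPKM, and GATA6 and GATA4 at 1.23, 1.54, 1.25 and 0.896 FPKM and 0.869, 1.73, 0.806 and 1.27 FPKM lay on both sides of the limit. Among 16 T-box genes 4 were expressed (5 without replicate 5), TBX18 highest at 8.61 ± 2.26 FPKM, and TBX4 and TBX5, the T-box factors of lung mesenchyme, were silent. Among 14 NK homeobox genes 2 were expressed, among them the heart factor NKX2-5 at 6.94, 7.32, 6.87 and 9.92 FPKM. Of 502 zinc finger genes named ZNF 217 were expressed (43.2%, beside 54.1% of all genes) and 95 silent (18.9%, beside 26.9%). Without replicate 5 the expressed ones numbered 289 of 502, beside 11082 of all 19158 genes, so the lower share depended on replicate 5. ZNF207, a mitotic protein, led at 79.7 ± 7.13 FPKM.

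Nuclear receptors are transcription factors switched by steroids, retinoids and lipids, and 25 of 48 were expressed (52.1%, beside 54.1% of all genes, and 29 without replicate 5), with a median of 1.78 FPKM. The oxysterol receptor NR1H2 led at 46.7, 45.4, 44.8 and 71.4 FPKM and the orphan repressor NR2F6 followed at 38.1 ± 2.86 FPKM, the pair separate from each other and from all below. RXRA, the common partner of many receptors, had 22.5 ± 0.708 FPKM, ESRRA 21.3 ± 3.79 FPKM and the adrenal factor NR0B1 18.4 ± 0.5905 FPKM, and neighbours from RXRA downwards overlapped. The glucocorticoid receptor NR3C1, the target of the drug given to the other wells, was measured at 18.9, 22.4, 22.03 and 9.06 FPKM, lowest in replicate 5. The mineralocorticoid receptor NR3C2 was silent at a mean of 0.0197 FPKM. The sex steroid receptors ESR1 and PGR, as well as RORB, RXRG and NR5A1, were listed at 0.

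Receptor tyrosine kinases carry growth signals across the membrane. Of 58 members 22 were expressed (37.9%, and 24 without replicate 5) and 20 silent (34.5%), with a median of 0.508 FPKM. AXL, the receptor for GAS6, was highest at 114, 121, 114 and 112 FPKM, and the ephrin receptor EPHA2 followed at 85.8, 90.1, 79.6 and 84.7 FPKM, both above every other member in all libraries. EGFR had 46.4, 73.7, 43.9 and 20.8 FPKM and MET, the receptor for hepatocyte growth factor, 40.1, 47.7, 45.05 and 20.5 FPKM. IGF1R followed at 22.8, 36.6, 32.4 and 15.3 FPKM. These 3 were lowest in replicate 5, their ranges overlapped, and EGFR was the highest of the 3 in each library except replicate 4. ERBB2 was at 23.2, 24.7, 20.8 and 31.1 FPKM, highest in replicate 5, while ERBB3 at 1.18, 1.68, 1.12 and 0.956 FPKM crossed the limit and ERBB4 was listed at 0.

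Of the kinases targeted as fusions in lung tumours, ALK was listed at 0, ROS1 was silent at a mean of 0.00794 FPKM, and RET was intermediate at 0.339, 0.203, 0.136 and 0.291 FPKM. NTRK3, by contrast, was expressed at 6.77, 8.81, 8.44 and 9.101 FPKM. KIT, FLT1 and FLT3, the receptors of mast cells, endothelium and blood progenitors, were listed at 0.

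**Figure D4:**
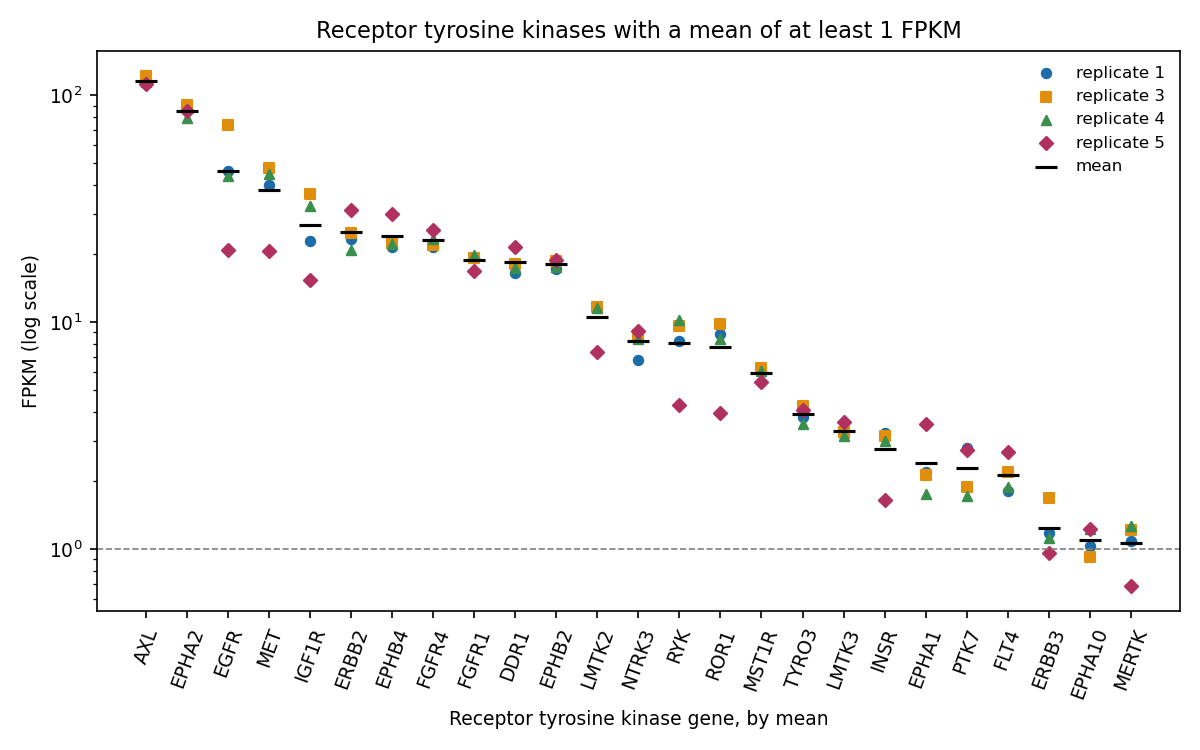
FPKM (vertical axis, log scale) of the 25 receptor tyrosine kinase genes with a mean of at least 1 FPKM (horizontal axis, by mean), with a symbol for each of the 4 untreated libraries, a bar for the mean and a dashed line at 1 FPKM. AXL and EPHA2 lie above the others in every library, and replicate 5 lies below the other 3 for EGFR, MET, IGF1R, RYK and ROR1.

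Cytokine receptors, which pass on inflammatory and growth signals, were expressed in 28 of 40 (70%, and 30 without replicate 5), with a median of 4.34 FPKM. TNFRSF1A, the main TNF receptor, had 86.6, 102, 92.8 and 118 FPKM, the TRAIL receptor TNFRSF10B 51.6 ± 8.18 FPKM and TGFBR2 41.8 ± 12.6 FPKM. The subunits IL13RA1 and OSMR overlapped, at 18.4 ± 5.36 FPKM and 18.4 ± 4.705 FPKM. CXCR1, CXCR2 and IL13RA2 were listed at 0. Receptors for transmitters and local mediators were expressed in 15 of 44 cases. F2RL1, a protease-activated receptor, had 28.3, 31.1, 31.2 and 18.9 FPKM, the sphingosine phosphate receptor S1PR3 20.3 ± 6.196 FPKM, the lysophosphatidate receptor LPAR1 15.6 ± 2.08 FPKM and the nucleotide receptor P2RY2 10.8 ± 0.368 FPKM.

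Genes of innate sensors and their adaptors were mostly intermediate or silent, and the adaptors MAVS and MYD88 led. MAVS, the adaptor of the RNA helicases, had 35.1, 32.5, 32.7 and 29.2 FPKM, and MYD88, that of the Toll-like receptors, 10.9, 14.6, 25.1 and 14.6 FPKM. The DNA sensor CGAS had 6.23 ± 1.26 FPKM, above the adaptor TICAM1 in all 4 libraries, though their ranges overlapped. TLR7, TLR8, AIM2 and NLRP3 were listed at 0 and TLR2, TLR9 and NOD2 were silent. The RNA helicase DDX58, chosen after its values were seen, had 2.43, 3.04, 2.77 and 0.8096 FPKM and lay below the limit of 1 FPKM in replicate 5. Of the 23 genes 5 were expressed in all 4 libraries and 8 in replicates 1, 3 and 4, so this count rests on replicate 5.

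Genes that viruses use to enter cells were expressed in 14 of 21 cases (66.7%, and 15 genes without replicate 5), with a median of 11.8 FPKM. Basigin, BSG, had 269, 209.9, 267 and 219 FPKM and the endosomal protease CTSL 157, 168, 178 and 132 FPKM, followed by nucleolin, NCL, at 128 ± 38.1 FPKM, AXL at 115 ± 4.18 FPKM and NECTIN2, a herpesvirus receptor, at 55.6 ± 8.17 FPKM. The serine proteases TMPRSS2 and TMPRSS4, which cut viral surface proteins, were listed at 0. FURIN, chosen after its values were seen, had 22.996, 19.4, 17.9 and 20.5 FPKM.

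Secreted growth factors were expressed in 24 of 49 cases (49.0%, and 25 genes without replicate 5), with a median of 1.29 FPKM. GDF15, a stress-induced hormone, had 93.8, 90.7, 103 and 121 FPKM, TGFB1 70.5, 70.5, 67.99 and 86.98 FPKM and the ERBB3 ligand NRG1 52.6, 57.2, 56.8 and 32.1 FPKM. GDF15 was above TGFB1 and TGFB1 above NRG1 in every library, with no overlap between their ranges. The activin subunit gene INHBB had 42.1 ± 8.12 FPKM and CYR61, a matricellular protein, 29.6 ± 1.17 FPKM. FGF7, FGF9, FGF10 and PTN were listed at 0, and HGF, IGF1, INHBA and ANGPT2 were silent. In the fibroblast growth factor family FGF2 was the expressed member of 20, at 7.41, 10.7, 9.97 and 2.53 FPKM, lowest in replicate 5.

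Cytokines and chemokines were expressed in 13 of 34 cases (38.2%, and 14 genes without replicate 5), with a median of 0.0900 FPKM. MIF, a constitutive cytokine, was far above the rest at 252, 248, 264 and 369 FPKM. The neutrophil chemokine CXCL5 had 41.4, 55.3, 58.6 and 26.9 FPKM, IL18 27.5, 21.97, 30.1 and 17.5 FPKM, the monocyte chemokine CCL2 24.5, 17.2, 20.4 and 21.1 FPKM and LIF 20.6 ± 2.34 FPKM. Several other members of the list were at the floor: IL1B, TNF, IL1A, IL33 and CSF3 were silent, and CCL20, CXCL10, IL10, TSLP, IFNB1 and IFNL1 were listed at 0. CXCL8, chosen after its values were seen, had 2.07, 2.08, 1.91 and 0.6002 FPKM, below 1 FPKM in replicate 5. Of 42 genes with interleukin or interleukin receptor symbols 6 were expressed and 28 silent.

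Protease control and clotting genes were a mixed group, with 12 of 44 complement and coagulation genes expressed (15 without replicate 5). The plasminogen activator PLAU had 71.2, 75.04, 70.8 and 64.5 FPKM, the inhibitor TFPI2 61.98, 46.8, 58.97 and 36.5 FPKM and the complement protease C1S 11.3 ± 1.69 FPKM. Of 33 serpins 8 were expressed, among them SERPINE2 at 61.5 ± 10.4 FPKM and the collagen chaperone SERPINH1 at 45.1 ± 4.47 FPKM. C1QA, C1QB and C1QC, made by macrophages, were listed at 0.

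Tumour suppressor genes were expressed in 46 of 52 cases (88.5%, beside 54.1% of all genes), with a median of 8.71 FPKM. CDKN1A, which halts the cell cycle, had 68.6, 60.8, 63.8 and 74.3 FPKM, highest in replicate 5. KEAP1 had 44.7, 45.3, 46.2 and 53.7 FPKM and STK11, the kinase upstream of AMPK, 19.04, 19.7, 19.4 and 23.7 FPKM. NF2, which restrains growth at cell contacts, was at 32.9, 32.7, 32.4 and 32.5 FPKM. SMARCA4, the ATPase of the SWI/SNF complex, had 4.94, 4.89, 4.66 and 3.68 FPKM, below its paralogue SMARCA2 at 10.4, 11.7, 10.9 and 5.62 FPKM in every library. CDH13 and LRP1B were silent, and BRCA2, CDKN1C and FHIT were intermediate. mRNA levels say nothing of whether an allele is intact.

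CDKN2A, which encodes the p16 and ARF proteins, was the member listed at 0 in all 4 libraries. It lies at chr9:21959882-22009363 (GRCh38, as given with the values). Its neighbour MTAP, a methionine salvage enzyme, at chr9:21802543-21937651, was expressed at 4.66, 3.75, 4.16 and 2.72 FPKM, and DMRTA1 on the other side of CDKN2A was at 0.4198, 0.453, 0.4099 and 0.131 FPKM. Further out, KLHL9 within the interferon cluster had 5.54, 7.85, 7.24 and 3.03 FPKM, FOCAD 20.02, 20.3, 19.5 and 16.7 FPKM, CAAP1 3.803, 3.804, 4.003 and 2.76 FPKM and PLAA 13.8, 16.2, 16.1 and 6.26 FPKM. Of 16 type I interferon genes on chromosome 9, 15 were listed at 0 and IFNE was at 0.155, 0.361, 0.156 and 0.0113 FPKM. Between DMRTA1 and CAAP1, ELAVL2 was silent at a mean of 0.0104 FPKM and IZUMO3 was listed at 0, while TUSC1 was expressed at a mean of 2.55 FPKM. CDKN2B was not among the genes with values. CDKN2A thus lay at 0 between MTAP, which was expressed, and DMRTA1, which was intermediate. The cause was not tested.

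Oncogenes were expressed in 27 of 36 cases (75%), with a median of 15.1 FPKM. BCL2L1, which blocks apoptosis, led at 121, 116, 119.5 and 135 FPKM, and CDK4 and CCND1, the kinase and cyclin that phosphorylate RB1, had 85.2, 80.2, 73.95 and 106 FPKM and 91.5, 97.7, 96.8 and 56.9 FPKM, overlapping and changing order between libraries. AKT2 and CTNNB1 had 82.4 ± 6.16 FPKM and 76.8 ± 14.3 FPKM. HRAS, a small GTPase of growth signalling, had 50.7, 46.3, 47.97 and 71.5 FPKM, highest in replicate 5. MYC was uneven, at 24.4, 3.32, 2.87 and 3.96 FPKM, and the value in replicate 1 was several times those of the other 3. Of 21 cancer-testis genes, which are normally active in germ cells, 3 were expressed and 15 silent. PRAME had 48.9, 51.98, 53.2 and 52.1 FPKM, XAGE1B 15.3, 10.01, 11.3 and 8.52 FPKM and MAGEA3 1.94, 1.47, 2.304 and 1.85 FPKM, while MAGEA6, a near-identical paralogue of MAGEA3 with which reads may be shared, was at 0.00712, 6.25, 5.97 and 4.51 FPKM.

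Large tissue-specific families were silent almost as wholes. Of 358 olfactory receptor genes 356 were silent (99.4%), and the exceptions OR1F1 and OR2B6 had means of 0.209 and 0.109 FPKM. Keratin-associated proteins of hair were silent in 72 of 76 cases and beta-defensins in 36 of 37. Bitter taste receptors differed, with 11 of 19 intermediate, TAS2R3 highest at 0.392, 0.493, 0.346 and 0.0368 FPKM. The clustered protocadherins also lay mostly between the limits: 8 of 53 were expressed, 29 intermediate and 16 silent, led by PCDHGC3 at 4.47, 4.89, 4.65 and 3.42 FPKM. The protocadherins of a cluster share exons, so their separate values are uncertain.

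Silent genes lay in runs along the chromosomes. There were 158 runs of 5 or more neighbouring silent genes and 41 runs of 10 or more, which held 767 genes. The longest, 66 genes from OR4B1 to APLNR on chromosome 11 (chr11:48216810-57237314), held 57 olfactory receptor genes. Another 48 genes from NLRP3 to LYPD8 on chromosome 1 held 42 olfactory receptors, and 44 genes from LCE3E to S100A7 (chr1:152565654-153460701) held 28 genes of the cornified envelope families LCE and SPRR. A run of 35 genes from CLDN17 to KRTAP19-8 on chromosome 21 held 33 keratin-associated proteins. By chromosome, the expressed share was highest on chromosome 16 (65.6%) and lowest on X (40.8%) and 4 (44.02%).

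Promoter sequence differed between the classes. RefSeq promoters (GRCh38.p14) were matched by symbol to 14918 of the 19158 genes, as 300 bases from 250 before to 50 after the start. The ratio of observed to expected CpG dinucleotides had a median of 0.855 over expressed, 0.721 over intermediate and 0.317 over silent genes, and a ratio over 0.6 was found in 86.6%, 62.8% and 28.2% of them. The 100 bases before the start are printed for 4 abundant genes: FTL, EEF1A1, TMSB10 and ANXA2. They are also printed for 4 silent genes: the surfactant genes SFTPB and SFTPA1, PTPRC and ALB. These are examples and do not stand for every gene of their class. Of the matched genes among the 100 most abundant, 91.7% had a ratio over 0.6, but ALDH1A1, KRT8 and AKR1C3 had 0.574, 0.111 and 0. In the printed windows CpG dinucleotides and any TATAAA or TATATAA are in capitals, 5′ to 3′ on the strand of the gene.
FTL: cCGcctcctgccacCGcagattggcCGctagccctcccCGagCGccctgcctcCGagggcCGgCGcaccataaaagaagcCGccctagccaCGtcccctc
EEF1A1: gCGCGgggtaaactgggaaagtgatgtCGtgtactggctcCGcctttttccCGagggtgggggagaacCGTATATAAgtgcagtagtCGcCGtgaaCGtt
TMSB10: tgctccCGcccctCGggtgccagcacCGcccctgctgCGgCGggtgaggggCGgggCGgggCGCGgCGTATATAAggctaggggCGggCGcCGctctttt
ANXA2: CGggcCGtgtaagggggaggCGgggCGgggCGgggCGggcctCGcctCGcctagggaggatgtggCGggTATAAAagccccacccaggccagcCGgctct
SFTPB: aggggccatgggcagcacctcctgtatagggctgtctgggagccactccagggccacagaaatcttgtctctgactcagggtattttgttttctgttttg
SFTPA1: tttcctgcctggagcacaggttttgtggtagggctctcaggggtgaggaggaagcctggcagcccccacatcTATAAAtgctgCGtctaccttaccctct
PTPRC: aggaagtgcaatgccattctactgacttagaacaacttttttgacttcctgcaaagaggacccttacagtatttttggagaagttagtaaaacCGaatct
ALB: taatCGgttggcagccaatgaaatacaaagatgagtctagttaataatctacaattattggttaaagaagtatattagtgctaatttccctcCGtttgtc
The abundant promoters held 10, 9, 13 and 10 CpG dinucleotides in these windows, and the silent ones 0, 1, 1 and 2. They lie at chr19:48965209-48965308 (FTL, plus strand), chr6:73521033-73521132 (EEF1A1, minus strand), chr2:84905556-84905655 (TMSB10, plus strand), chr15:60397987-60398086 (ANXA2, minus strand), chr2:85668742-85668841 (SFTPB, minus strand), chr10:79610839-79610938 (SFTPA1, plus strand), chr1:198638940-198639039 (PTPRC, plus strand) and chr4:73404187-73404286 (ALB, plus strand).

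The word TATAAA, a common form of the TATA box, was searched from 40 to 20 bases before the start on the strand of the gene, with no other motif overlapping the count. It was found in 3.53% of all matched promoters, in 1.63% of expressed, 2.81% of intermediate and 8.30% of silent genes. Among the 100 most abundant genes, of which 72 were matched, 15 held it (20.8%), and 9 of these 15 were histone genes. Without histone genes the share was 10.2% of 59 among the most abundant and 1.316% of 8432 among the expressed. Matched genes were also ordered by mean FPKM into 10 groups, the lowest with a median of 0.00975 FPKM. The word was found in 5.47% of the lowest group, 5.07% of the highest and 0.714% to 4.28% of the others. It was thus found most often at both ends of the scale of abundance, and the 20.8% holds for the most abundant genes alone. EEF1A1 and TMSB10 hold TATATAA in place of TATAAA, and with either word the share among the most abundant was 26.4% against 4.11% of all. Without histone genes that share was 16.9% of 59. A match is a description of letters and shows no bound factor.

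Replicates 1, 3 and 4 differed little from each other, and replicate 5 was shifted. After scaling by a trimmed mean of M values, with factors of 1.04, 1.09, 1.08 and 0.822, the median SD of log2(FPKM + 1) over genes with a mean of 1 FPKM or more was 0.28, and it was 0.11 without replicate 5. Genes more than 2-fold away from the mean of the other 3 libraries numbered 302 above and 602 below in replicate 5, of 11273, and at most 57 in either direction in the others. In replicate 5, 3.62% of genes lay more than 2-fold outside the range of the other 3, against 0.177% to 0.213% for replicates 1, 3 and 4.

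The shift followed the base composition of the transcripts and, more weakly, their length. Across 11250 genes the log2 difference of replicate 5 from the others had a Spearman correlation of 0.77 with GC content, and replicates 1, 3 and 4 had -0.40, -0.63 and -0.68, with the 4 values tied to each other because each is taken against the other 3. Over 10 equal groups of genes by GC content, in the poorest group (median 36.9%) the median difference of replicate 5 was -0.73, and in the richest group (median 64.1%) it was 0.63. With the trend over GC content removed, the median SD was 0.17. With transcript length the Spearman correlation was -0.39 for replicate 5 and 0.19, 0.40 and 0.27 for replicates 1, 3 and 4. Length and GC content were not separated. The cause of the shift was not tested.

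**Figure D5:**
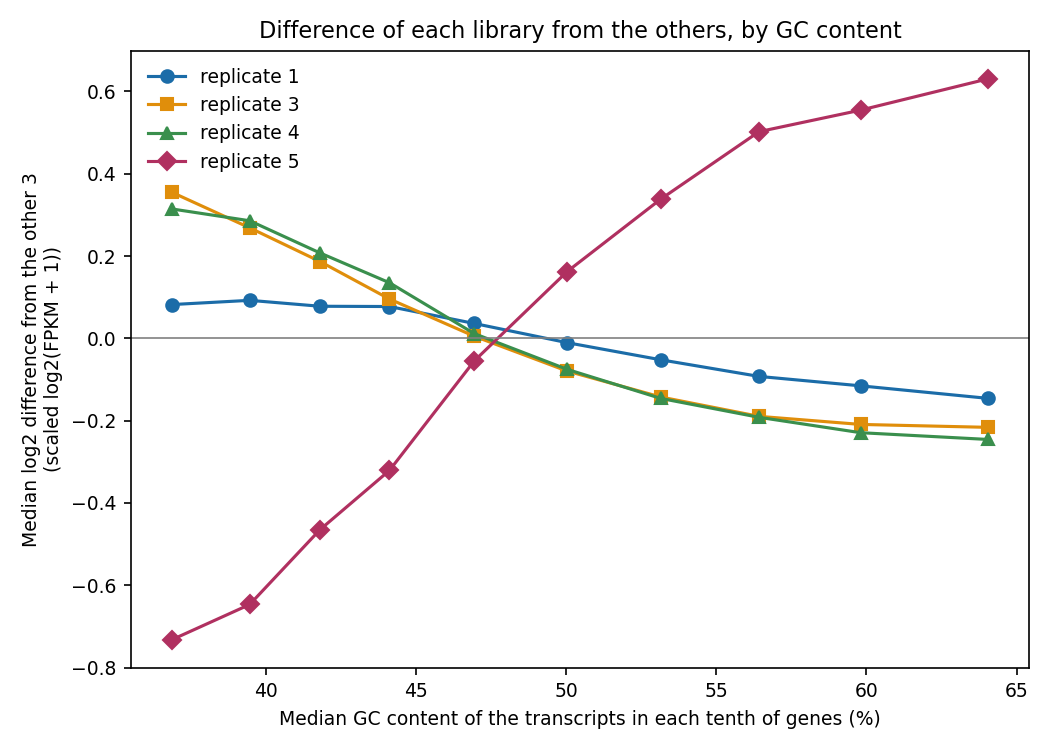
Median log2 difference of each untreated library from the other 3 (vertical axis, scaled log2(FPKM + 1)) over 10 equal groups of genes ordered by the GC content of their transcripts (horizontal axis, median in percent), 1 line a library. Replicate 5 runs from -0.73 in the poorest group to 0.63 in the richest, and the other 3 run the opposite way.

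Genes used as references in qPCR were expressed in 19 of 19 cases, but not all were steady. GUSB, a lysosomal enzyme, had 17.7, 15.9, 17.2 and 14.7 FPKM, and TBP, the TATA-binding protein, 6.63, 6.77, 6.99 and 5.201 FPKM. ACTB reached 1775, 1716, 1596 and 3201 FPKM, highest in replicate 5, and HPRT1 35.6, 42.7, 42.9 and 20.7 FPKM, lowest in it. ACTB had a CV of 36.5%, GUSB 8.12% and HPRT1 29.3%, and after scaling 53.4%, 8.76% and 19.4%. The transferrin receptor TFRC was lowest in replicate 5 as well, at 39.1, 39.5, 52.5 and 21.5 FPKM.

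Among 5295 genes with a mean of at least 10 FPKM, where XIST and genes of the Y chromosome were left out, the median CV of FPKM was 16.4%, 1378 genes had a CV under 10%, 105 over 50% and 7 over 100%. The steadiest was PEBP1, a phosphatidylethanolamine-binding protein, at 107.8, 108.3, 108.2 and 108.3 FPKM, a CV of 0.202%. CFAP20, C1orf43, NF2 and REXO4 followed with CVs of 0.324%, 0.597%, 0.675% and 0.809%. This order belongs to the deposited FPKM: after the scaling above PEBP1 had a CV of 14.1% and NF2 13.9%, and the smallest CV, 0.416%, was that of CSNK2A3, a casein kinase gene at 12.2% unscaled. Which genes were steadiest thus depended on the scaling, and CSNK2A3 overlaps GALNT18 on the same strand, so its values are uncertain.

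Of the genes with the 10 largest CVs, 7 had 1 library far from the rest and 3, all known by clone names, did not. Of the latter, AC138811.2 was at 75.7, 41.9, 3.28 and 7.11 FPKM and AC107871.1 at 16.1, 21.3, 2.29 and 1.54 FPKM, both higher in replicates 1 and 3, and AP000350.4 was spread over 0.24999, 7.98, 18.4 and 38.4 FPKM. TOMM6, a subunit of the mitochondrial import pore, was at 103, 0.00808, 0.00719 and 1.03 FPKM, high in replicate 1 alone. NEMF, which acts on stalled ribosomes, was at 2.81, 3.93, 188 and 1.98 FPKM, high in replicate 4, and ARPC5, a subunit of the actin nucleator Arp2/3, at 70.3, 5.91, 5.53 and 9.69 FPKM, high in replicate 1. HIST2H4A was at 37.6, 69.1, 48.03 and 599 FPKM and HIST2H2BF at 278, 307, 264 and 1333 FPKM, both high in replicate 5. The read-through locus NME1-NME2 was listed at 219, 176, 201 and 0 FPKM, at 0 in replicate 5, and the heat shock gene HSPA1A, which has a near-identical copy, was at 169, 183, 1.59 and 189.8 FPKM, low in replicate 4. TOMM6 and NEMF overlap other genes, HIST2H4A overlaps its copy and NME1-NME2 overlaps NME2 on the same strand, so these values are uncertain.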

How the data were processed

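RNA of 4 untreated wells was depleted of ribosomal RNA and sequenced as paired ends, per the labels' protocols. The submitters' processing notes name FastQC 0.11.9, cutadapt 3.4, STAR 2.7.9a, featureCounts of Subread 2.0.3, DESeq2 1.32.0 and GRCh38. The labels describe the deposited values as counts, but they are not whole numbers, and they were read as FPKM from the values: multiplied by transcript length they summed to about the total of all fragments (1014750049 to 1096443383, where FPKM of all fragments would give 1000000000). The step by which the authors made the deposited FPKM, the release of the annotation and whether strand was used are not given in the sources used here.

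Genes with 1 annotated transcript gave the depth. Of 269 to 295 low values a library, 43.1% to 47.6% came within 0.1 of whole fragments, which does not recover counts. Chance would give 20% at a fixed depth, but the depth was chosen to make this share largest, so the 20% is too low a comparison. GENCODE 44 gave GC content, transcript length and strand for 19065 genes, of which 18947 are protein coding. Overlaps were read from the gene coordinates given with the values. Each gene was followed by its identifier, since 12 symbols name several. Classes, ranks, shares and CVs used the deposited FPKM. Spread used log2(FPKM + 1) after scaling by a trimmed mean of M values (0.3 of M and 0.05 of A trimmed on each side), with Python 3.11.15, numpy 2.4.6, pandas 2.3.3 and SciPy 1.17.1. The procedure was tested on simulated data. No test between groups was made.

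The genes named were the 20 highest nuclear and 5 highest mitochondrial genes, for each of 48 lists up to 5 of the highest members and up to 8 silent ones, 23 genes of lung cancer, lineage and virus entry, and the extremes of CV and of the library that stood apart, without those left out for brevity; some genes are not reported here. Genes beyond this rule are marked in the text or were added for the order within a group, after their values were seen. The gene lists, the members and the rule were chosen with earlier results of these data known. On the lists, 2086 genes were found, and those not found were not analysed here. The labels give each library its own well, so the spread is that between wells of 1 line.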

Additional observations from a re-analysis of the deposited data

Results flagged for a closer look

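In 39 of 212 sets of 4 values with any spread (library measures and named genes), 1 library lay apart from the other 3: its gap to the nearest of them, divided by the whole range, was above Dixon's 95% critical value for 4 samples. Chance gives about 1 in 20 sets of independent values, but these sets share 4 libraries and some genes were named for such a gap or after their values were seen, so the count is a description. Replicate 5 was the library apart in 30, replicate 1 in 4, replicate 3 in 3 and replicate 4 in 2. The values are given without an explanation.

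Replicate 5 had 10555 genes at 1 FPKM or more (11290 to 11378 in the other 3), 4360 genes listed at 0 (3976 to 4040 in the other 3) and 10.3 percent of the summed FPKM in histone genes (5.5003 to 5.801 in the other 3).

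Replicate 5 lay above the other 3 in GAPDH at 3526 FPKM (2466 to 2589 in the others), ENO1 at 1684 FPKM (1225 to 1263 in the others), ACTB at 3201 FPKM (1596 to 1775 in the others), AKR1B1 at 2002 FPKM (1049 to 1095 in the others) and HIST1H3B at 2270.4 FPKM (1215 to 1378 in the others). Replicate 5 also lay above the other 3 in HIST2H2AA3 at 1749 FPKM (889 to 990.5 in the others), HIST2H2AA4 at 1694 FPKM (862 to 955 in the others), KRT18 at 1270.0 FPKM (805 to 872 in the others), SPDEF at 7.299 FPKM (4.88 to 5.21 in the others) and NKX2-5 at 9.92 FPKM (6.87 to 7.32 in the others). Replicate 5 also lay above the other 3 in NR1H2 at 71.4 FPKM (44.8 to 46.7 in the others), NR2F6 at 42.3 FPKM (36.2 to 37.2 in the others), TGFB1 at 86.98 FPKM (67.99 to 70.5 in the others), MIF at 369 FPKM (248 to 264 in the others) and KEAP1 at 53.7 FPKM (44.7 to 46.2 in the others). Replicate 5 also lay above the other 3 in STK11 at 23.7 FPKM (19.04 to 19.7 in the others), HIST2H4A at 599 FPKM (37.6 to 69.1 in the others) and HIST2H2BF at 1333 FPKM (264 to 307 in the others). Replicate 5 lay below the other 3 in SOX9 at 8.68 FPKM (11.9 to 12.4 in the others), TGFBR2 at 22.9 FPKM (46.8 to 48.96 in the others), IL13RA1 at 10.4 FPKM (20.2 to 21.6 in the others), S1PR3 at 11.04 FPKM (23.05 to 23.6 in the others) and INHBB at 30.04 FPKM (44.96 to 47.8 in the others). Replicate 5 also lay below the other 3 in CXCL8 at 0.6002 FPKM (1.91 to 2.08 in the others), DMRTA1 at 0.131 FPKM (0.4099 to 0.453 in the others), CAAP1 at 2.76 FPKM (3.803 to 4.003 in the others) and CCND1 at 56.9 FPKM (91.5 to 97.7 in the others).

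Replicate 1 lay above the other 3 in GATA3 at 4.87 FPKM (3.46 to 3.52 in the others), MYC at 24.4 FPKM (2.87 to 3.96 in the others), TOMM6 at 103 FPKM (0.00719 to 1.03 in the others) and ARPC5 at 70.3 FPKM (5.53 to 9.69 in the others).

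Replicate 3 lay above the other 3 in NKX2-1 at 0.0154 FPKM (0 in the others), TP63 at 1.37 FPKM (0.781 to 0.824 in the others) and REXO4 at 17.56 FPKM (17.27 to 17.31 in the others). Beside values of 0, any level of NKX2-1 above 0 would have been flagged, and this one is under the 0.0188 to 0.0200 FPKM of 1 fragment on 2 kb.

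Replicate 4 lay above the other 3 in NEMF at 188 FPKM (1.98 to 3.93 in the others). Replicate 4 lay below the other 3 in HSPA1A at 1.59 FPKM (169 to 189.8 in the others).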

How the results depend on the processing

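With 5 FPKM in place of 1 the expressed genes numbered 6340 in place of 10358, and 396 in place of 720 of the 2086 genes on the lists. With FPKM rescaled to the same sum as TPM in each library the expressed genes numbered 11736, and after scaling by a trimmed mean of M values 10531. Counting as silent only genes listed at 0 in every library left 3121 in place of 5161. The share of the 10 most abundant genes was 7.71% without mitochondrial-genome genes and 9.11% without histone genes, against 8.50%. The median SD of log2(FPKM + 1) was 0.17 with the trend over GC content removed. The share of promoters with TATAAA among the most abundant genes was 10.2% without histone genes, against 20.8%.

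Leaving out each library in turn gave 10384 to 11082 expressed genes, 5255 to 5294 silent genes, 359 to 427 genes holding 50% of the summed FPKM, a share of 8.26% to 8.70% for the 10 most abundant genes, a mitochondrial share of 2.97% to 4.40%, 723 to 818 expressed list genes and a median SD of 0.11 to 0.32, the lowest value without replicate 5. Over single lists, 39 of 144 counts moved by more than 1.5 times under another threshold or the mean, and 2 of 192 when a library was left out: innate sensors from 5 to 8 without replicate 5 and UDP glucuronosyltransferases from 1 to 2 without replicate 3. The means of PEBP1, CFAP20 and C1orf43 moved to 108.9, 25.4 and 75.1 FPKM when scaled, by more than their SD, and those of the other 199 named genes did not. Because the scaling factors largely cancel in a mean over the libraries, this check could flag only genes with a very small SD. It does not show that single values were unaffected: the CV of ACTB went from 36.5% to 53.4% and that of HPRT1 from 29.3% to 19.4%. The GC correction, the scaled FPKM, the count of protein-coding genes, the second TATA word and the omission of histone genes from the promoter count were chosen after seeing the data. No paired analysis was possible because only 1 group was used. The unit of the values was inferred, the depth was estimated, and levels near 0.02 FPKM stand for about 1 fragment on a transcript of 2 kb.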
